A study of Bos taurus with 6 samples.

Results

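The miR-378 family was followed in small RNA libraries of bovine granulosa cells, the somatic cells that line the follicle and synthesize estradiol. All mature miRNA names of this number were taken, whatever their letter suffix, which gave 3 names out of 755 in the count files: bta-miR-378, bta-miR-378b and bta-miR-378c. The files give 1 row for each combination of a mature miRNA and a precursor hairpin, and the family filled 4 of the 906 rows, since bta-miR-378 is listed under both bta-mir-378-1 and bta-mir-378-2. The members were selected by name, and the family was chosen with earlier results of these data known.

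A miRNA is cut from a hairpin precursor by Drosha and Dicer, and the mature strand guides a silencing complex to messenger RNAs that pair with its first bases. MiR-378 is known as a miRNA of tissues with high oxidative metabolism, such as striated muscle and brown fat, and its best-known precursor lies within PPARGC1B, the gene of a transcriptional coactivator of mitochondrial metabolism. In granulosa cells miR-378 has been described as a repressor of aromatase (CYP19A1), the enzyme that converts androgens to estrogens. The libraries hold small RNA, so aromatase itself was not measured here.

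The 3 libraries of preovulatory dominant follicles and the 3 of subordinate follicles came from Simmental heifers, all synchronized with a prostaglandin analogue and a gonadotropin releasing hormone analogue and slaughtered on cycle day 19. Follicles were assigned to a type by their diameter. RNA of the granulosa cells was pooled before library preparation, and dominant follicles were far fewer than subordinate ones in the same animals, so a dominant library may represent few follicles and a subordinate library many. Separate pools are labelled as biological replicates, and p-values below measure the spread between these pools. With the largest row taken for each mature miRNA, library totals ran from 190385 to 364125 reads. Normalized counts are given as CPM and were scaled with TMM factors, edgeR's correction for differences in composition. At this depth 3 reads equalled between 8.86 and 13.9 CPM.

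Dominant replicate 3 stood apart from the other dominant libraries in its blood miRNAs. The red blood cell miRNAs bta-miR-451, bta-miR-144 and bta-miR-486 summed to 13091 and 8247 CPM in dominant replicates 1 and 2, to 1048 CPM in dominant replicate 3, and to between 808 and 1530 CPM in the subordinate libraries. Results are therefore given with and without this library where it mattered.

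Every dominant library had less bta-miR-378 than every subordinate library. It had 159, 243 and 544 reads in dominant replicates 1, 2 and 3, and 1514, 1282 and 800 reads in subordinate replicates 1, 2 and 3. After normalization these were 561, 1127 and 1732 CPM against 4471, 4147 and 2823 CPM. The groups did not overlap, and the lowest subordinate library was 1.63 times the highest dominant one. The means were 1140 ± 586 CPM in dominant and 3814 ± 873 CPM in subordinate follicles (SD, n = 3 each), 3.34-fold lower in the dominant follicles.

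The log2 fold change of bta-miR-378 was -1.74 (standard error 0.38, edgeR quasi-likelihood test, adjusted p = 0.0133 by Benjamini-Hochberg over 353 miRNAs). Calls followed the thresholds of the study: a log2 fold change of 1 or more in size, p up to 0.05 and a false discovery rate up to 0.1. Of all miRNAs tested, 21.5% were called in either direction, and 9.63% were called lower in dominant follicles. Groups that did not overlap, with the dominant libraries below, were found for 18.4% of the miRNAs tested. Among the 18 more abundant miRNAs called lower, those averaging 50 reads or more, bta-miR-378 ranked 9 by the size of its decrease. In pooled tissue, fewer cells that make a miRNA and less of it per cell cannot be told apart.

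**Figure D1:**
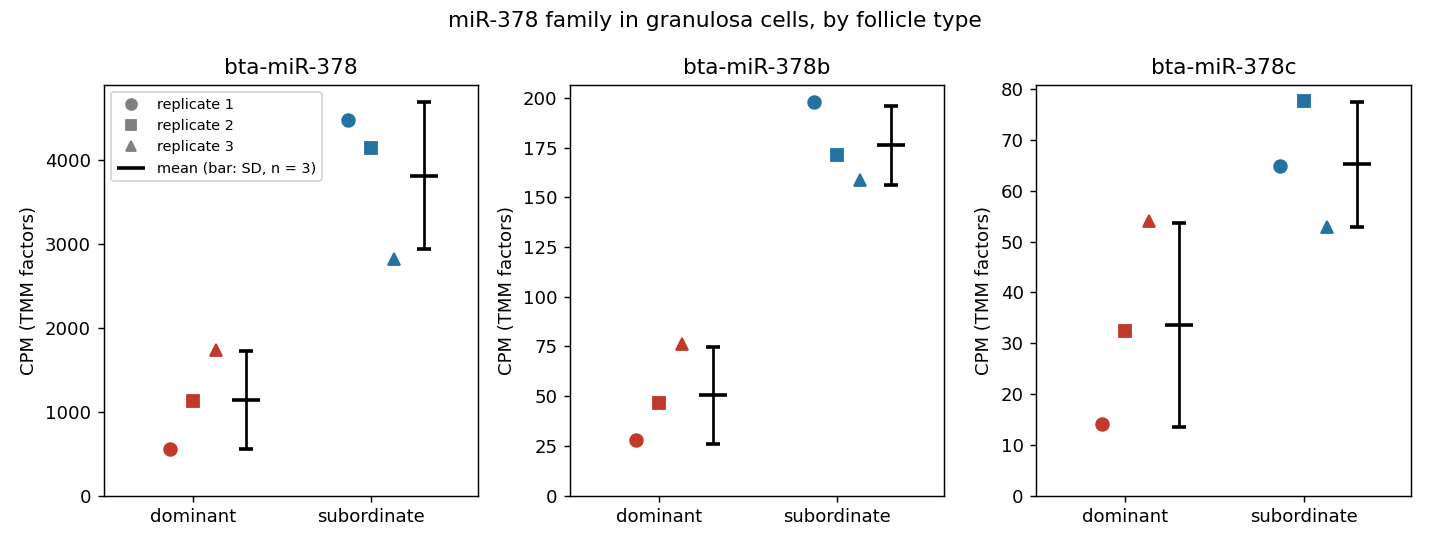
TMM-scaled CPM (vertical axis, from 0) of the 3 family members in each library, with dominant follicles in red, subordinate follicles in blue, symbols for the replicate number, and the mean with its SD (n = 3) in black. The groups are separate for bta-miR-378 and bta-miR-378b and overlap for bta-miR-378c, where dominant replicate 3 (54.1 CPM) lies above subordinate replicate 3 (52.9 CPM).

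Bta-miR-378b, a far less abundant member, fell by about as much. It had 8, 10 and 24 reads in the dominant libraries and 67, 53 and 45 reads in the subordinate ones. This corresponded to 28.2, 46.4 and 76.4 CPM against 198, 171 and 159 CPM. Its lowest subordinate library was 2.08 times its highest dominant library, so the groups did not overlap. The log2 fold change was -1.79 (standard error 0.39, adjusted p = 0.0122, edgeR's quasi-likelihood test), and the mean was 3.50-fold lower in dominant follicles.

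Bta-miR-378c did not pass the thresholds. It had 4, 7 and 17 reads in the dominant libraries and 22, 24 and 15 reads in the subordinate libraries. The normalized levels were 14.1, 32.5 and 54.1 CPM against 65.0, 77.6 and 52.9 CPM, and the groups overlapped through the libraries numbered 3. The log2 fold change was -0.94 (standard error 0.50, adjusted p = 0.224, edgeR's quasi-likelihood test). Dominant replicate 1, with 4 reads, lay close to the level of 3 reads, which was 10.6 CPM in that library.

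Whether bta-miR-378c passed the thresholds depended on dominant replicate 3. Without that library its log2 fold change was -1.54 (adjusted p = 0.0607, edgeR), past the thresholds, while without dominant replicate 1 it was -0.57 (adjusted p = 0.442). Bta-miR-378 and bta-miR-378b were called whichever library was left out. Their log2 fold changes became -2.22 and -2.27 without dominant replicate 3, and -1.41 and -1.49 without dominant replicate 1.

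**Figure D2:**
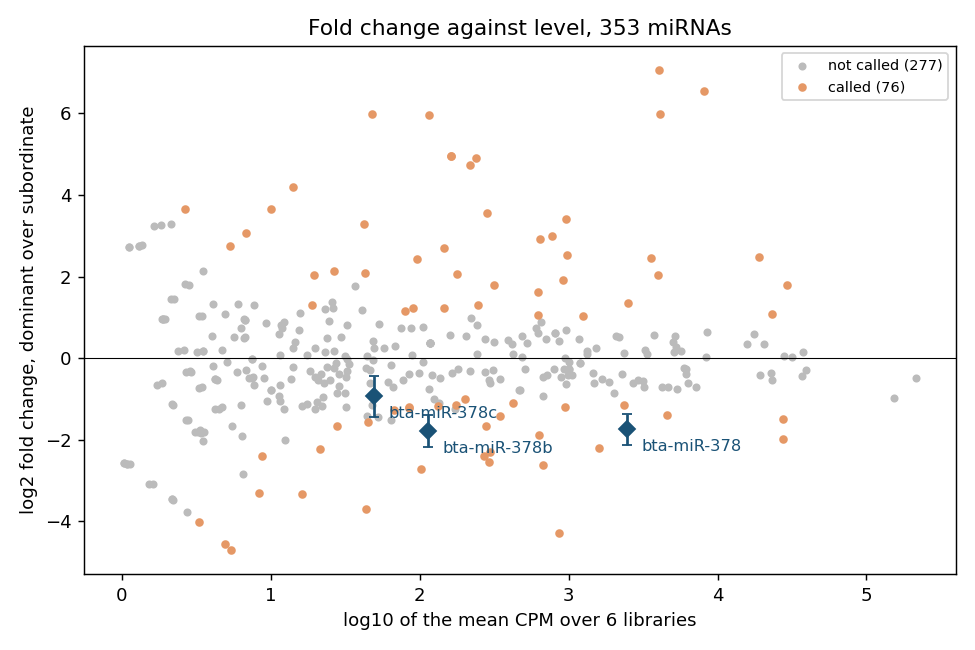
Log2 fold change of dominant over subordinate follicles (vertical axis) against the log10 of the mean CPM (horizontal axis) for the 353 miRNAs tested, orange where called and grey where not. The family members (blue diamonds, bars for the standard error) lie at similar fold changes for bta-miR-378 (-1.74) and bta-miR-378b (-1.79) although their levels differ, and bta-miR-378c lies nearer to 0 at -0.94.

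The dominant libraries differed widely among themselves in miR-378. The highest dominant library had 3.09 times the level of the lowest for bta-miR-378, 2.71 times for bta-miR-378b and 3.84 times for bta-miR-378c. All 3 members were lowest in dominant replicate 1 and highest in dominant replicate 3. In subordinate follicles the corresponding ratios were 1.58, 1.25 and 1.47.

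On the log2 CPM scale the SD of bta-miR-378 over the dominant libraries was 0.82, against a median of 0.23 for the 134 miRNAs that averaged 50 reads or more, and 8 of these had a larger SD. In subordinate follicles its SD was 0.36 against a median of 0.27, and 46 of the 134 miRNAs had a larger one. These 8 miRNAs, named here after their values were seen, did not share an order over the dominant libraries. The blood and endothelial miRNAs bta-miR-451, bta-miR-486, bta-miR-142-5p and bta-miR-126-5p, and also bta-miR-2313-3p, were highest in dominant replicate 1 and lowest in dominant replicate 3, the opposite order to the miR-378 family. Bta-miR-1246 ran in the same order as the family over the dominant libraries only, with 579, 904 and 8136 CPM in dominant replicates 1, 2 and 3. In subordinate replicates 1, 2 and 3 it had 1391, 1139 and 13152 CPM. It was thus highest in subordinate replicate 3, where bta-miR-378 was at its lowest subordinate level. Bta-miR-2478 and bta-miR-3431 were highest in dominant replicate 2, and lowest in dominant replicates 3 and 1, respectively.

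Markers of other cells were followed over the same libraries. The 3 red blood cell miRNAs were detected, with bta-miR-451 (2.998 on the log2 scale) and bta-miR-486 (2.45) called higher in dominant follicles, calls that were lost without dominant replicate 1 or 2 or subordinate replicate 3. The white blood cell miRNAs bta-miR-142-5p, bta-miR-223 and bta-miR-150 had log2 fold changes of 0.53, -0.48 and 0.083 and were not called by edgeR. Their sum was 1112, 654 and 258 CPM in dominant replicates 1, 2 and 3 and between 408 and 558 CPM in subordinate libraries. Bta-miR-142-3p, also on that list, had 1 read in dominant replicate 1 and 1 in subordinate replicate 1 and was not tested. Both endothelial miRNAs, the arms of bta-miR-126, had log2 fold changes of -1.25 and -1.09 (adjusted p = 0.113 and 0.105, edgeR) and were not called, with a summed level of 293, 199 and 73.2 CPM in the dominant libraries and between 354 and 540 CPM in the subordinate ones.

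The 7 miRNAs of stroma and theca summed to between 18693 and 28825 CPM in dominant and between 21989 and 36790 CPM in subordinate libraries. Bta-miR-143 made up most of each sum. Bta-miR-199a-3p and bta-miR-199c had identical reads in every library, so the list and the sums count those reads more than once. All 7 had negative log2 fold changes, from -0.26 for bta-miR-145 to -1.52 for bta-miR-199b. Their median was -0.53, against -0.20 over all miRNAs tested. Of the 7 miRNAs, 1 was called lower and none higher, where 9.63% of all miRNAs tested were called lower and 11.9% higher. That 1 was bta-miR-214 (-1.20), and with scaling to the total count it was at -0.99 and not called, nor without dominant replicate 1, without subordinate replicate 3, or without both libraries numbered 3 (-0.86). The striated muscle miRNAs were followed because miR-378 is abundant in that tissue. Bta-miR-1 and bta-miR-133a summed to between 4.64 and 35.3 CPM in dominant and between 11.8 and 21.2 CPM in subordinate libraries. Bta-miR-133b, bta-miR-206 and bta-miR-208a had no read in any library, and bta-miR-208b had 1 read, in dominant replicate 2. The gonadal miRNA bta-miR-202 was present in every library, between 43510 and 46751 CPM in dominant and between 11576 and 15231 CPM in subordinate follicles. It was called higher in dominant follicles (log2 fold change 1.80, adjusted p = 8.15e-05, edgeR). The part of blood, endothelial or stromal cells in the miR-378 levels was not tested.

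Bta-miR-378 carried nearly all reads of the family. It made up between 93.0 and 93.5% of the family reads in the dominant libraries and between 93.0 and 94.4% in the subordinate ones. Its rank by read count was 95, 67 and 54 in dominant replicates 1, 2 and 3, where between 321 and 328 miRNAs had reads. In subordinate replicates 1, 2 and 3 its rank was 30, 34 and 41, where between 335 and 351 miRNAs had reads. It took 0.121 ± 0.057% of all reads in dominant and 0.357 ± 0.099% in subordinate follicles (SD, n = 3 each).

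The proportion of bta-miR-378b to bta-miR-378 was similar in both follicle types. In dominant replicates 1, 2 and 3 its reads equalled 5.03, 4.12 and 4.41% of those of bta-miR-378, and in the subordinate replicates 4.43, 4.13 and 5.63%. The groups overlapped, and the log2 ratio, with 0.5 reads added to both counts, differed between dominant and subordinate follicles by -0.010 (exact two-sided permutation test, p = 1.0). Leaving out single libraries moved this difference between -0.10 and 0.12. How reads that match several family members were shared is not given, so these counts may not be independent of each other.

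Bta-miR-378c took a larger proportion in dominant follicles. Its reads equalled 2.52, 2.88 and 3.13% of those of bta-miR-378 in the dominant libraries and 1.45, 1.87 and 1.88% in the subordinate ones, without overlap. The log2 ratio was -5.04 ± 0.10 in dominant and -5.82 ± 0.22 in subordinate follicles (SD, n = 3 each), a difference of 0.78 (two-sided exact permutation, p = 0.1, which is the lower limit with 3 libraries in each group). Leaving out single libraries moved it between 0.66 and 0.85. Such a shift was common, since 70.7% of the 191 other miRNAs that averaged 10 reads or more also had a log2 ratio to bta-miR-378 that was higher in dominant follicles without overlap. As a share of all family reads in dominant replicate 1, the 4 reads of bta-miR-378c gave 2.34% with a 95% Wilson interval from 0.913 to 5.86%, and the 22 reads in subordinate replicate 1 gave 1.37% with an interval from 0.908 to 2.07%. These intervals, which cover counting error only, overlapped.

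**Figure D3:**
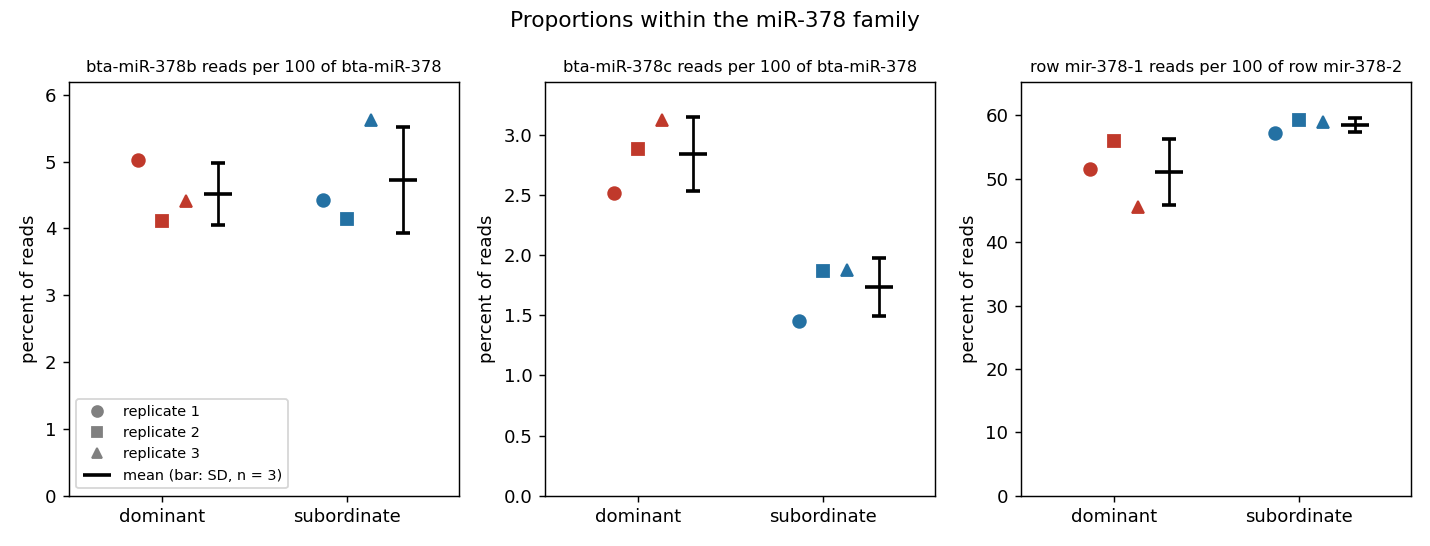
Reads of bta-miR-378b and of bta-miR-378c as a percentage of the bta-miR-378 reads, and reads of the bta-mir-378-1 row as a percentage of the bta-mir-378-2 row, in each library, with group means and SD (n = 3). The first proportion overlaps between follicle types, bta-miR-378c is higher in the dominant libraries (2.52 to 3.13%) than in the subordinate ones (1.45 to 1.88%), and the row proportion is lower in the dominant libraries.

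The rows of the 4 precursors were also tested each as a feature of its own, over 480 rows, of which 17.5% were called and 9.38% were called lower. In the CPM of this fit all 4 rows were lower in each dominant than in each subordinate library, as were 20% of the rows tested. The row of bta-mir-378c was separated by little, with 37.5 CPM in dominant replicate 3 and 40.6 CPM in subordinate replicate 3. The same reads, 17 and 15, overlapped at 54.1 and 52.9 CPM in the fit on mature miRNAs, so the separation of this row depended on the scaling. The row of bta-mir-378-2 held the larger count of bta-miR-378 in every library and is the one used above. The row of bta-mir-378-1 had 82, 136 and 248 reads in the dominant and 866, 760 and 471 reads in the subordinate libraries. Its log2 fold change was -2.04 (standard error 0.35, adjusted p = 0.00288, edgeR), against -1.82 (standard error 0.36, adjusted p = 0.00680) for the row of bta-mir-378-2 in the same fit. In that fit the row of bta-mir-378b was at -1.86 (adjusted p = 0.00550) and was called, and the row of bta-mir-378c was at -1.02 (adjusted p = 0.172) and was not called.

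The reads listed under bta-mir-378-1 equalled 51.6, 56.0 and 45.6% of those under bta-mir-378-2 in dominant replicates 1, 2 and 3, and 57.2, 59.3 and 58.9% in the subordinate replicates. The proportion was lower in every dominant library, with a difference in log2 ratio of -0.20 (two-sided exact permutation, p = 0.1, again the lower limit). This comparison was chosen after the values were seen. Without dominant replicate 3 the difference was -0.12, and without dominant replicate 2 it was -0.27. Of 21 other miRNAs with unequal precursor rows of at least 10 reads on average, 33.3% did not overlap between groups in the ratio of their smallest to their largest row, and 3 differed by as much as the miR-378 rows or more. A read may be counted in both rows of one mature miRNA, so the rows are not separate sets of molecules.

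The precursors do not form a genomic cluster. In the RefSeq gene table of the ARS-UCD2.0 assembly, used for names and neighbours only because the reads were mapped to UMD3.1, MIR378-1 lies within PPARGC1B, MIR378-2 within CALCR, the calcitonin receptor gene, and MIR378C within ZNF521, a zinc finger gene. MIR378B lies between THY1 and NECTIN1. The nearest miRNA gene on either side belongs to another family in each case, and MIR378D, which the table also holds, was not analysed here. The nearest miRNA genes to MIR378-1 are MIR145 and MIR1777B. Bta-miR-145 had 278, 161 and 146 reads in dominant and 193, 342 and 269 in subordinate libraries, with a log2 fold change of -0.26 (adjusted p = 0.593, edgeR), and bta-miR-1777b had 1 read in a single library. The nearest to MIR378-2 are MIR489 and MIR2284B. Bta-miR-489 had no read in any library, and bta-miR-2284b had 2, 0 and 2 reads in dominant and 0, 2 and 0 in subordinate libraries, and was not called (adjusted p = 0.571, edgeR).

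The profile of bta-miR-378 over the 6 libraries was set against the 133 miRNAs outside the family that averaged 50 reads or more. Likeness was measured as the root-mean-square difference in log2 CPM after each miRNA was centred on its own mean, so that a smaller value is more alike and the difference between follicle types counts in it. The value was 0.17 for bta-miR-378b, lower than for each of the 133 miRNAs, and 0.43 for bta-miR-378c, while the median of the 133 was 1.12. Bta-miR-378b and bta-miR-378c themselves averaged fewer than 50 reads, so miRNAs at their level were not among those compared. Whether the family members shared reads was not tested. The 5 miRNAs most like bta-miR-378 were bta-miR-296 (0.42), bta-miR-3431 (0.50), bta-miR-20a (0.51), bta-miR-769 (0.53) and bta-miR-361 (0.55).

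These 5 miRNAs were called lower in dominant follicles, as were 9.63% of all miRNAs tested. Their log2 fold changes ran from -1.15 for bta-miR-3431 to -2.41 for bta-miR-296. Their profiles were chosen for likeness to bta-miR-378 over the same libraries, so these calls are not a separate result. With scaling to the total count, bta-miR-3431 (-0.94) and bta-miR-361 (-0.99) were not called. Bta-miR-3431 also lost its call without dominant replicate 1 or 3, or without subordinate replicate 1 or 2. Bta-miR-20a, a member of a cluster that promotes proliferation, had 134, 144 and 127 CPM in the dominant libraries and 499, 479 and 300 CPM in the subordinate ones. Its dominant libraries lay close together where those of bta-miR-378 were widely spread.

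**Figure D4:**
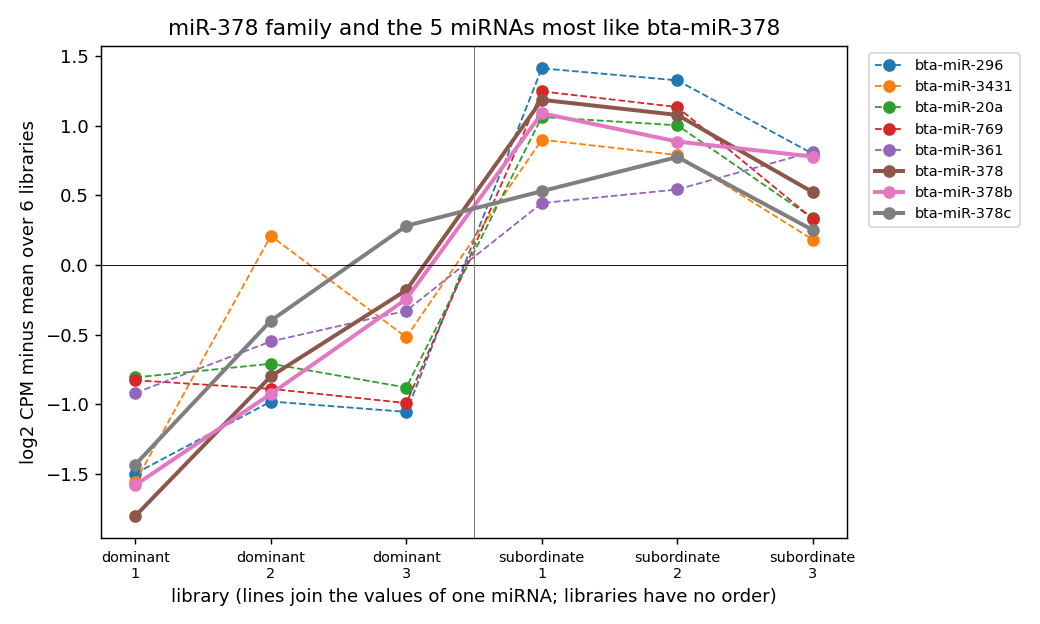
Log2 CPM minus the mean over the 6 libraries (vertical axis) for the miR-378 family (thick lines) and the 5 miRNAs most like bta-miR-378 (dashed) in each library (horizontal axis). Bta-miR-378 and bta-miR-378b run close to each other in all libraries (root-mean-square difference 0.17), and among the dominant libraries the family is lowest in replicate 1 and highest in replicate 3.

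Other miRNAs linked to estradiol were taken from a list of 7, of which bta-miR-320b had no read and 6 were tested. Of these, 2 were called higher and 1 lower, with a median log2 fold change of -0.11, against a median of -0.20 over all miRNAs tested, of which 11.9% were called higher and 9.63% lower. Bta-miR-132, a miRNA induced by the luteinizing hormone surge, had 7400, 4991 and 11963 CPM in dominant and 177, 45.3 and 159 CPM in subordinate libraries. Its log2 fold change was 5.99 (adjusted p = 0.000128, edgeR), and that of bta-miR-22-3p, reported to act on the estrogen receptor, was 2.49 (adjusted p = 9.48e-06).

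Bta-miR-224, described as raising estradiol release in granulosa cells, had 131, 148 and 124 CPM in dominant and 278, 233 and 296 CPM in subordinate libraries. It was lower in dominant follicles at the edge of the fold threshold (log2 fold change -1.002, adjusted p = 0.0198, edgeR), and with scaling to the total count it was at -0.80 and not called, nor was it called without dominant replicate 1 or 3 or subordinate replicate 1 or 3, without both libraries numbered 3 (-0.87), or among miRNAs with at least 10 reads in at least 3 libraries (-0.996). Bta-let-7f, like miR-378 a reported regulator of aromatase, was at -0.30 (adjusted p = 0.159). Bta-miR-383 (0.081) and bta-miR-320a (-0.47) were not called either. Bta-miR-378 was lower in dominant follicles by more on the log2 scale than the other tested members of this list, without a test of that order.

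**Figure D5:**
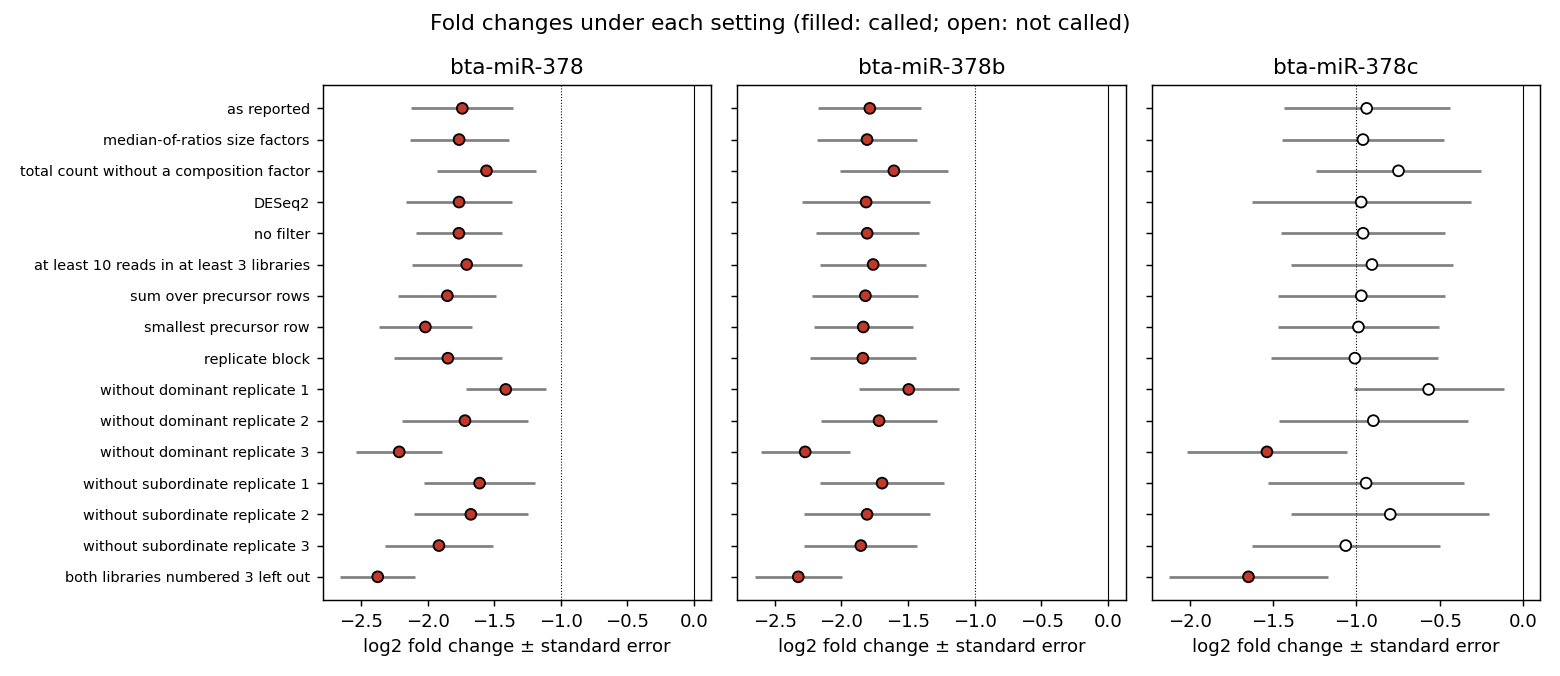
Log2 fold changes of the 3 family members (horizontal axis, bars for the standard error) under the reported fit and each other setting (vertical axis), filled where called and open where not, with a dotted line at -1. Bta-miR-378 and bta-miR-378b are filled in every setting, and bta-miR-378c is filled only without dominant replicate 3 (-1.54) and without both libraries numbered 3 (-1.65).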

How the data were processed

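Small RNA of 6 granulosa cell libraries was sequenced by the authors, who used Cutadapt and Seqtk to clip adapters and drop reads of low quality or length, aligned the remainder to the bovine genome (UMD3.1) with Bowtie and counted them on known bovine miRNAs with miRDeep2. Base calls came from CASAVA 1.8.0, per the labels. The deposited values are counts of reads without normalization. How a read that matches several precursors or family members was shared is not given in the sources used here, and mature sequences were not used.

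Groups and replicate numbers came from the labels. For each mature miRNA the largest precursor row was taken. Counts were tested with edgeR 4.0.16 (R 4.3.3; TMM, quasi-likelihood test, follicle type as the only term) over 353 miRNAs, those read in 2 or more of the 3 replicates of either group. Standard errors were derived from the fold change and its F statistic. The script was tested on simulated data. Ratios were tested by exact permutation with Python 3.11.15 and scipy 1.17.1. DESeq2 1.42.0, other scalings, filters and row choices, a replicate block and left-out libraries were the alternatives. Library totals ran from 190385 to 364125 reads.

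Over 194 miRNAs, the deviations from the group means correlated at 0.14, 0.38 and 0.41 between libraries with the same number. Dominant replicate 1 with subordinate replicate 2 gave 0.12, and dominant replicate 2 with subordinate replicate 1 gave 0.19. Libraries numbered 3 against the others gave values from -0.42 to -0.19. Deviations from a group mean cancel out within the group, so these negative values follow in part from the positive value between the libraries numbered 3. The libraries numbered 3 deviated together (0.41), and a pairing by number among the others was less clear. This pattern comes from the data and not from the labels. The replicates of a group differed by more than sampling noise (chi-square per degree of freedom between 18.9 and 99.3). The text names all family members and rows, the 5 miRNAs with the most similar profile, a list of estradiol-linked miRNAs and marker lists. Members and lists were chosen with earlier results of these data known.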

Additional observations from a re-analysis of the deposited data

How the results depend on the processing

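Bta-miR-378 and bta-miR-378b were lower and called under all 15 alternatives, as were the rows of bta-mir-378-1, bta-mir-378-2 and bta-mir-378b under the 11 tried for them. Leaving out single libraries gave log2 fold changes from -2.22 to -1.41 for bta-miR-378, from -2.27 to -1.49 for bta-miR-378b, from -1.54 to -0.57 for bta-miR-378c and from -1.58 to -0.66 for the row of bta-mir-378c. Bta-miR-378c passed the thresholds without dominant replicate 3 (-1.54), as did its row (-1.58), and without both libraries numbered 3 (-1.65, an alternative chosen after seeing the data). With the replicate block the log2 fold changes were -1.85, -1.84 and -1.01 for bta-miR-378, bta-miR-378b and bta-miR-378c, and no family call changed. The number of miRNAs called was 76 (42 higher, 34 lower) and lay between 54 and 75 under the alternatives, with 71 under the block. Scaling to the total count moved the median log2 fold change of all miRNAs from -0.20 to -0.012 and gave 47 higher and 23 lower calls, with bta-miR-378 at -1.56. The difference in the log2 ratio of bta-miR-378b to bta-miR-378 changed sign with 1 read added (0.034) and with summed rows (0.060), and ranged from -0.10 to 0.12 over left-out libraries. The sign of bta-miR-383, which was not called, also turned over left-out libraries (-0.11 to 0.32) and without both libraries numbered 3 (-0.19), where bta-miR-145 was at 0.072. The cause was not tested. With 3 libraries a group, the permutation tests could not go below p = 0.1. Bta-miR-378c had 4 to 24 reads a library.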
